A study of Mus musculus with 8 samples.

Results

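The mucins and goblet cell genes followed here are 10 genes, chosen by gene name from the 36163 gene names of the array: the secreted mucins Muc5ac and Muc5b, the membrane mucins Muc1, Muc4, Muc16 and Muc20, and the goblet cell genes Agr2, Tff2, Clca3 and Spdef. They were measured by 12 of the array's 55681 probes, with a pair of probes each for Muc4 and Muc20 and a single probe for each of the others. All 10 passed the filter on dim probes, 9 of them in both groups. Clca3, the Gob-5 gene that RefSeq now lists as Clca1, passed through the knockout group alone, being well above background on 2 of 4 wild-type and 3 of 4 knockout arrays. The samples were whole-lung total RNA from C57BL/6 mice, 4 wild-type and 4 with a lung-specific knockout of GGPPS1 (gene symbol Ggps1), the enzyme that makes the geranylgeranyl lipid attached to many small GTPases. Every mouse, the wild-type controls included, had received LPS, a bacterial outer-membrane component that inflames the lung, 12 h before, so all differences are between genotypes in LPS-treated lungs, and no untreated lung was analysed here. The dose of LPS, the age and sex of the mice and the promoter or Cre line that restricts the knockout are not given in the sources used here.

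Mucus of the airways is a gel of secreted mucins, very large glycoproteins that form disulfide-linked polymers. In the mouse Muc5b is the mucin made under steady conditions by secretory cells and glands, and Muc5ac is the one induced when secretory cells turn into goblet cells. Membrane mucins are tethered to the apical surface, Muc1, Muc4 and Muc20 on epithelial cells and Muc16 also on the mesothelium that lines the lung. Spdef is the ETS-family transcription factor that drives goblet cell differentiation, Agr2 is a protein disulfide isomerase of the endoplasmic reticulum that mucin folding needs, Tff2 is a trefoil peptide secreted with mucus, and Clca3 is a secreted product of goblet cell granules.

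Levels are log2 processed signals minus the 75th percentile of their array, lungs are numbered by the replicate number in the labels, and differences are knockout minus wild-type on that scale. They compare a probe between samples and never one gene's level with another's. Of all spots, 58.1% to 65.3% per array were well above background, 24464 genes were tested, and no spot was saturated. Ggps1 itself differed by -0.06 ± 0.068 between the groups (SE; limma, adjusted p = 0.613), and since the deleted part and the share of lung cells that carry the deletion are not given, its probe does not check the labels. Lung identity was clear: all 9 alveolar type 2 markers were measured, with Sftpc, the surfactant protein C gene, between 8.92 and 9.29 in the 8 samples. All arrays lay on 1 slide, wild-type in row 1 and knockout in row 2, so slide row and genotype cannot be told apart. In whole-lung RNA, fewer cells of a type and less RNA per cell cannot be told apart either. The labels do not say that each sample was a separate mouse beyond the design text's count of 4 per group, so the p-values measure the spread between these samples.

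Muc4 and Muc20 are neighbours on chromosome 16, on opposite strands, and their 4 probes interleave. On build mm9 the dimmer Muc4 probe lies at chr16:32774896-32774955 on the plus strand, the dimmer Muc20 probe at chr16:32777512-32777571 on the minus strand, the brighter Muc4 probe at chr16:32782278-32782337 on the plus strand and the brighter Muc20 probe at chr16:32786143-32786202 on the minus strand. The file assigns both Muc4 probes to one RefSeq transcript and the Muc20 probes to a different transcript each. The last 30 of the 60 bases of each probe are shown, because the pair of Muc20 probes gave different results, with the polyadenylation hexamer AATAAA in capitals where the probe holds it:
Muc4, dimmer probe: ccgtggcttgcttctgcagtaaggaggagc
Muc20, dimmer probe: tctgagactgaactattatcAATAAAttct
Muc4, brighter probe: tcctacacagatatatcaggaaggaggata
Muc20, brighter probe: tcctctgcctggttattgtatttcggtaaa
Spdef: tgccctggggatggatAATAAAgacgtaag
The hexamer, searched on the probe's own strand, was present in 4 of the 12 probes (Muc5b, Muc16, Spdef and the dimmer Muc20 probe) and in 10.1% of all 60-base probes on the array. The Spdef probe lies on mm9 at chr17:27851401-27851460 on the minus strand. The Tff2 probe is the only one of the 12 whose 60 bases are spread over a longer genomic interval, 825 bases (chr17:31279256-31280080).

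None of the 10 genes passed the test over all genes, while 9 of 10 were higher in the knockout lungs, against 45.7% of all genes tested. The 9 include Clca3, which passed the filter through the knockout group alone. At an adjusted p under 0.05 limma called 0 members, beside 0.0613% of all genes (15 of 24464) in either direction and 0.0327% higher in the knockout. At an unadjusted p under 0.05 it gave 2 members, Spdef and Muc20, both higher, beside 23.5% of all genes in either direction and 10.2% higher in the knockout. Tested probe by probe, the dimmer Muc20 probe passed (adjusted p = 0.0462 with limma over 33866 probes), beside 0.065% of all probes. The median difference was 1.95 for the secreted mucins, 0.47 for the membrane mucins and 2.03 for the goblet cell genes, beside -0.027 over all genes tested, which describes the classes and is no test of them. Single lungs moved these medians: the goblet cell value was 1.21 without knockout replicate 4, 1.29 without wild-type replicate 4 and 3.30 without knockout replicate 3, and 1.97 over the 3 genes other than Clca3. The large differences came with a large spread: Agr2 differed by 103-fold among the knockout lungs.

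**Figure D1:**
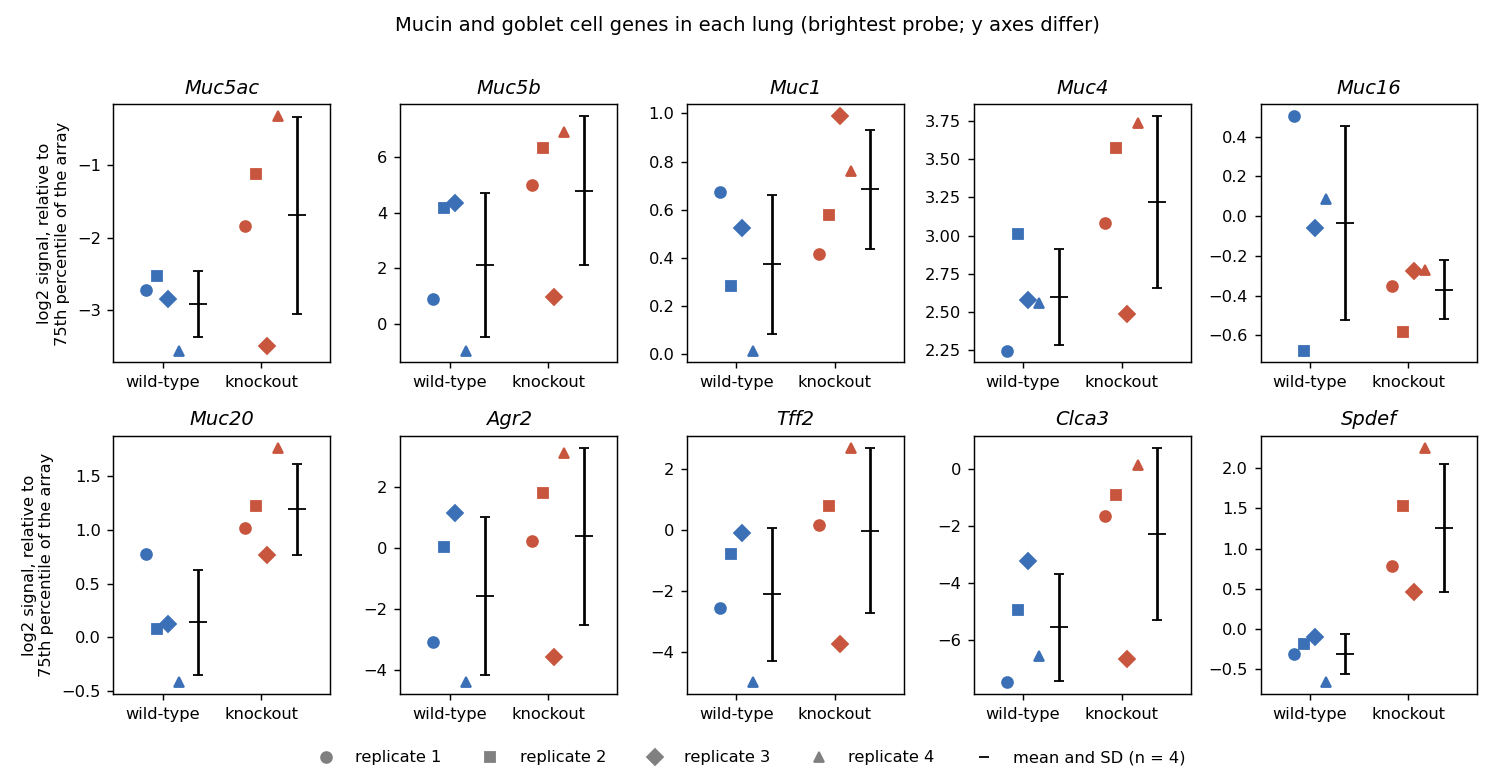
Log2 signal minus the 75th percentile of the array (y axis, scales differ between panels) for the brightest probe of each of the 10 genes in 4 wild-type and 4 knockout lungs, with the symbol giving the replicate number and the bar the mean and SD. Only Spdef has all 4 knockout values above all 4 wild-type values, while Muc5b, Agr2, Tff2 and Clca3 spread over several log2 units within each genotype.

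Spdef was the member with the smallest p among the 10 genes. It read -0.31, -0.19, -0.10 and -0.66 in wild-type lungs 1 to 4 and 0.78, 1.53, 0.46 and 2.25 in knockout lungs 1 to 4. Every knockout value lay above every wild-type value, with 0.56 between the lowest knockout and the highest wild-type sample. Of all genes tested, 6.1% had groups that did not overlap with the knockout higher, and Spdef was the 1 member among the brightest probes to do so. The difference was 1.57 ± 0.37 (SE, n = 4 per group; limma, adjusted p = 0.0765), a 2.96-fold level with a 95% interval of 1.65-fold to 5.32-fold, and the exact permutation p was 0.0286, the smallest that 4 against 4 allows. Within the knockout group Spdef ranged over 3.45-fold, highest in replicates 4 and 2, and within the wild-type group over 1.48-fold.

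Neither secreted mucin passed the test, and both were spread widely among the knockout lungs. Muc5b read 0.89, 4.18, 4.36 and -0.96 in wild-type lungs 1 to 4 and 4.98, 6.33, 0.97 and 6.91 in knockout lungs 1 to 4. Knockout replicates 1, 2 and 4 lay above every wild-type sample, and knockout replicate 3 fell to the level of wild-type replicate 1. The range was 39.97-fold within the wild-type group, 61.4-fold within the knockout group and 233-fold over all 8 lungs. The difference of 2.68 ± 1.62 (SE, n = 4 per group; limma, adjusted p = 0.343) did not pass, and its 95% interval ran from 0.489-fold to 83.6-fold. Muc5ac read -2.72, -2.52, -2.85 and -3.55 in wild-type and -1.84, -1.12, -3.50 and -0.33 in knockout lungs 1 to 4. The wild-type lungs kept within 2.04-fold of each other, and the knockout lungs spread over 8.96-fold, again with replicate 3 low and among the wild-type values. Its difference was 1.21 ± 0.62 (SE, n = 4 per group; limma, adjusted p = 0.272), with a 95% interval of 0.869-fold to 6.20-fold.

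The goblet cell products repeated the Muc5b pattern sample by sample. Agr2 read -3.08, 0.02, 1.13 and -4.39 in wild-type lungs 1 to 4 and 0.24, 1.79, -3.58 and 3.10 in knockout lungs 1 to 4. Wild-type replicates 1 and 4 and knockout replicate 3 were low, the other 5 lungs high, and the groups overlapped. The difference was 1.97 ± 1.68 (SE, n = 4 per group; limma, adjusted p = 0.495). Tff2 read -2.57, -0.79, -0.09 and -4.98 in wild-type and 0.16, 0.77, -3.72 and 2.69 in knockout lungs 1 to 4. The same 3 lungs were lowest, and the difference was 2.08 ± 1.503 (SE, n = 4 per group; limma, adjusted p = 0.421). Clca3 read -7.50, -4.97, -3.26 and -6.58 in wild-type and -1.66, -0.93, -6.68 and 0.14 in knockout lungs 1 to 4. In the same 3 lungs its signal did not rise clearly above background, so the values there have no order. The fitted difference, 3.29 as processed and 1.76 with normexp background correction, rests on those values and is not read as a size. Clca3 stayed in the fit over all genes, which did not call it, and its p-value is not read either.

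**Figure D2:**
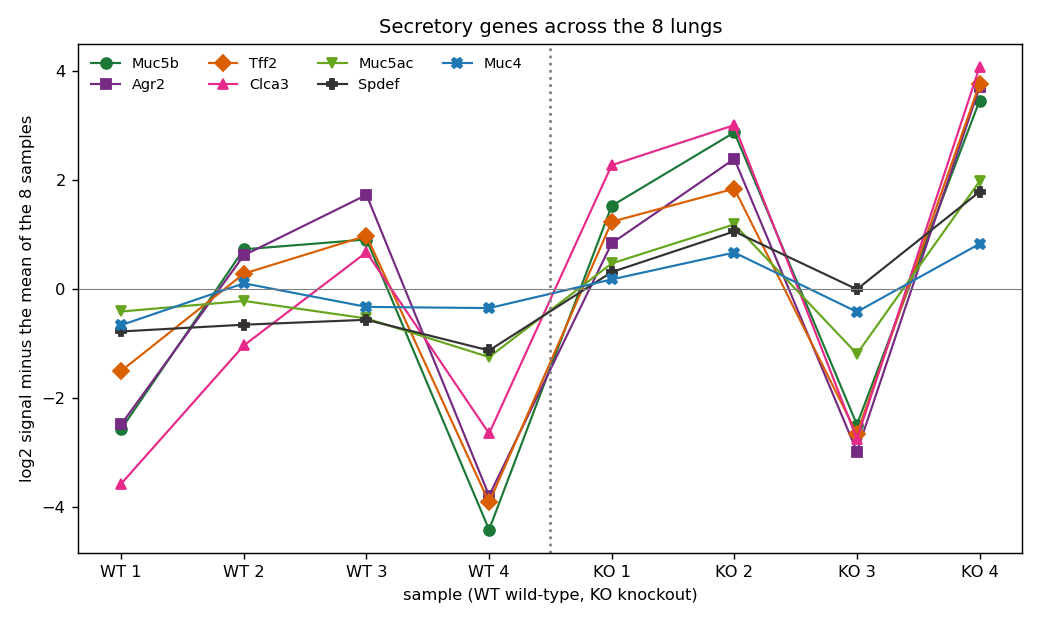
Log2 signal of 7 genes in each of the 8 lungs (x axis; WT wild-type, KO knockout), each minus its own mean over the 8 samples. Muc5b, Agr2, Tff2 and Clca3 are low in WT 1, WT 4 and KO 3 and highest in KO 4, Muc5ac, Spdef and Muc4 move less, and Spdef alone among the 7 keeps every knockout lung above every wild-type lung.

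Ranked by spread within genotypes, 3 members that were above background in every lung stood near the top of all genes. The within-group SD was 2.74 for Agr2 (rank 17 of 24464), 2.64 for Muc5b (rank 18) and 2.45 for Tff2 (rank 23), beside a median of 0.193 over all genes. Muc5ac had 1.005 (rank 435), Spdef 0.59 (rank 1745), Muc20 0.46 (rank 3131), Muc4 0.46 (rank 3171), Muc16 0.36 (rank 5050) and Muc1 0.27 (rank 8245). Knockout replicate 4 held the highest value of 8 of the 10 members, Clca3 among them, beside 15.6% of all genes. Wild-type replicate 4 held the lowest value of 7 members, beside 8.89% of all genes. Without knockout replicate 3 the difference of Muc5b was 3.95, that of Agr2 3.29 and that of Tff2 3.32. Without wild-type replicate 4 they were 1.65, 1.03 and 1.12, and without knockout replicate 4 they were 1.97, 1.06 and 1.18, and none of them passed.

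The membrane mucins moved less and not as a block. Muc20, by its brighter probe, read 0.77, 0.08, 0.12 and -0.42 in wild-type lungs 1 to 4 and 1.01, 1.22, 0.77 and 1.77 in knockout lungs 1 to 4. Knockout replicate 3 met wild-type replicate 1, and the other 3 knockout lungs were above every wild-type lung. The difference was 1.05 ± 0.29 (SE, n = 4 per group; limma, adjusted p = 0.0947), or 2.08-fold with a 95% interval of 1.32-fold to 3.28-fold. The dimmer Muc20 probe read -3.73, -4.02, -4.13 and -4.16 in wild-type and -2.10, -2.68, -2.10 and -2.78 in knockout lungs 1 to 4. All knockout lungs lay above all wild-type lungs, with a gap of 0.95, and here knockout replicates 1 and 3 were the higher ones, whereas on the brighter probe replicates 2 and 4 were. It rose by 1.59 ± 0.19 (SE, n = 4 per group; limma over probes, adjusted p = 0.0462), or 3.02-fold, with an exact permutation p of 0.0286. The probe is dim, and with normexp background correction the rise was 0.89 (limma over probes, adjusted p = 0.0386). It passed in 7 of the 20 other settings tried and lost its call when any 1 of the 8 samples was left out (rise of 1.49 to 1.72; limma over probes, adjusted p between 0.0563 and 0.126).

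Muc4, by its brighter probe, read 2.25, 3.01, 2.58 and 2.56 in wild-type lungs 1 to 4 and 3.08, 3.58, 2.49 and 3.73 in knockout lungs 1 to 4. Knockout replicates 1, 2 and 4 exceeded all wild-type lungs, replicate 3 did not, and the difference of 0.62 ± 0.28 (SE, n = 4 per group; limma, adjusted p = 0.231) did not pass. The dimmer Muc4 probe gave nearly the same size, 0.65 ± 0.26 (SE, n = 4 per group; limma over probes, adjusted p = 0.184). On that probe the groups did not overlap, but only by 0.018 between wild-type replicate 2 and knockout replicate 1. Both Muc4 probes were highest in knockout replicates 4 and 2.

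**Figure D3:**
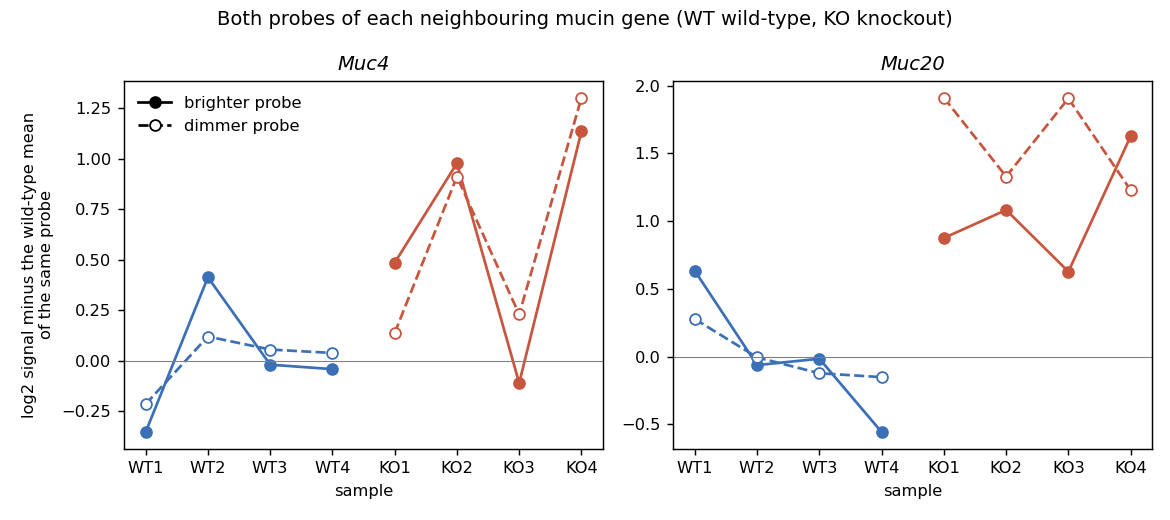
Log2 signal of the brighter (filled, solid) and dimmer (open, dashed) probe of Muc4 and Muc20 in each lung (x axis; WT wild-type, KO knockout), each minus the wild-type mean of the same probe. For Muc4 both probes peak in KO 2 and KO 4, and for Muc20 the dimmer probe is higher in KO 1 and KO 3 while the brighter one is higher in KO 2 and KO 4.

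Muc1 and Muc16 showed the smallest differences. Muc1 read 0.68, 0.28, 0.52 and 0.01 in wild-type and 0.41, 0.58, 0.99 and 0.76 in knockout lungs 1 to 4, with overlapping groups. The difference was 0.31 ± 0.17 (SE, n = 4 per group; limma, adjusted p = 0.311), with a 95% interval of 0.939-fold to 1.64-fold. Muc16 was the only member with a lower mean in the knockout lungs. It read 0.50, -0.68, -0.06 and 0.09 in wild-type and -0.35, -0.58, -0.27 and -0.27 in knockout lungs 1 to 4. The knockout lungs lay together inside the wild-type range, and the difference was -0.33 ± 0.23 (SE, n = 4 per group; limma, adjusted p = 0.398).

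**Figure D4:**
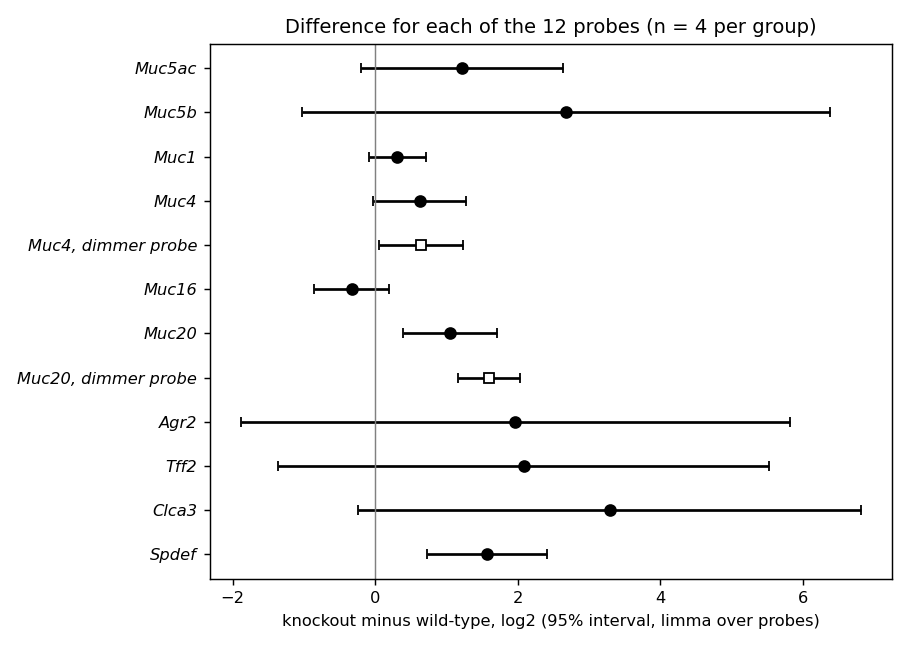
Difference between knockout and wild-type lungs (x axis, log2) for each of the 12 probes, with the 95% interval of the limma fit over all probes. Filled circles are the brightest probe of a gene and open squares the dimmer one. Spdef and both Muc20 probes have intervals above 0, as does the dimmer Muc4 probe narrowly, and the intervals of Muc5b, Agr2, Tff2 and Clca3 (at background in 3 lungs) span more than 6 log2 units.

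Likeness of pattern was read as Pearson's r over the 8 samples, among genes with a RefSeq symbol, as a description of samples that share arrays and genotypes. Closest to Muc5b were the secretoglobin Scgb3a1 (r = 0.98), the antibacterial lectin Reg3g (r = 0.98) and Agr2 (r = 0.98). Scgb3a1 read 0.35, 6.84, 7.32 and -1.18 in wild-type and 6.97, 8.55, 1.54 and 8.99 in knockout lungs 1 to 4, low in the same 3 lungs as Muc5b. Closest to Muc5ac were Gna14, a G protein alpha subunit (r = 0.99), Plekhg6 (r = 0.98) and the calcium channel subunit Cacna1h (r = 0.98). Among the closest to Muc4 were the fatty acid binding protein Fabp4 and Acot4 (r = 0.98 and 0.97), and closest to Muc1 were Dtna, Slc25a10 and Dcdc2a (r = 0.99, 0.97 and 0.95). Closest to Muc16 were B230206H07Rik (r = 0.98), the WNT agonist Rspo1 (r = 0.98), which is on the mesothelial list below, and Il18r1 (r = 0.97).

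Other genes of the mucus programme were taken from lists, and limma called none of their members over all genes. Of the other mucin genes 5 of the 12 listed were measured, 4 of them higher, with Ovgp1 at 0.21 ± 0.067 and the epithelial membrane mucin Muc13 at 0.62 ± 0.23 (SE; adjusted p = 0.124 and 0.158). Cd164 and the endothelial sialomucin Emcn differed by 0.10 ± 0.079 and 0.13 ± 0.15 (SE). The intestinal gel mucin Muc2 and the gastric Muc6 did not pass the filter on dim probes. Other goblet cell products and factors were higher in 10 of 12 measured cases (median 0.65), 3 of them at an unadjusted p under 0.05, beside 23.5% of all genes in either direction and 10.2% higher. These were Creb3l1, a transcription factor of secretory cells (0.39 ± 0.11), Fcgbp, a mucus protein (0.62 ± 0.19), and Pigr, which carries IgA across epithelium (0.80 ± 0.25, SE), and limma gave adjusted p = 0.105, 0.118 and 0.119. Retnlb, a goblet cell protein best known from the gut, went the other way at -0.67 ± 0.30 (SE; limma, adjusted p = 0.227).

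Enzymes that build mucin-type O-glycans had no common direction, with 9 of 21 measured higher and 12 lower (median -0.02). Galnt15 (Galntl2 in the files) differed by 0.95 ± 0.18, Galnt14 by 1.25 ± 0.44 and the core 3 synthase B3gnt6 by 0.47 ± 0.14, and the initiating transferase Galnt1 by -0.48 ± 0.13 (SE). Their adjusted p-values with limma were 0.0619, 0.151, 0.109 and 0.0957. Galnt14 read -5.76 to -5.44 in wild-type and -5.37 to -2.96 in knockout lungs, highest in knockout replicate 4. Its difference is not read as a size. Genes of mucin granule exocytosis were lower in 9 of 13 cases (median -0.04), with Stxbp2, the Munc18 protein of regulated secretion, at -0.25 ± 0.085, Stx11 at -0.37 ± 0.16, Stx3 at 0.36 ± 0.19 and Sytl2 at 0.52 ± 0.26 (SE). Ion channels and transporters that hydrate mucus were lower in 7 of 9 cases (median -0.14). The water channel Aqp5 differed by -0.44 ± 0.15, the chloride channel Cftr by 0.80 ± 0.30, the calcium-activated chloride channel Ano1 by -0.19 ± 0.11 and the cotransporter Slc12a2 by 0.18 ± 0.11 (SE).

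Inducers and regulators of goblet cells split, 13 of 24 measured being higher (median 0.15). Ehf, an ETS factor of epithelium, read 0.81, 0.41, 0.44 and 0.49 in wild-type and 1.41, 1.16, 1.39 and 1.48 in knockout lungs 1 to 4, with groups apart. Its difference was 0.82 ± 0.12 (SE, n = 4 per group; limma, adjusted p = 0.0566). The pioneer factor Foxa1 (0.88 ± 0.17, SE) and the airway factor Sox2 (1.08 ± 0.30, SE) also had groups that did not overlap. That made 3 of the 24, beside 6.1% of all genes, with the knockout higher. Stat6, which relays interleukin-13, differed by -0.30 ± 0.076 (SE). Limma gave Foxa1, Sox2 and Stat6 adjusted p = 0.0628, 0.0957 and 0.0866. These regulators were named for having the smallest p of the list. Il13, the main inducer of goblet cells, did not pass the filter on dim probes, nor did Foxa3 and Il25.

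Promoters were available for 6 of the 10 members in the RefSeq table (build GRCm38.p6), and the 250 bases before the start were searched on both strands for the forkhead letters TGTTTAC or TATTTAC and for CCGGAT, the core of the published Spdef site. A forkhead match was found in 2 of the 6, Spdef and Muc20, and in 5.76% of the 32851 promoters of the table. CCGGAT was found in 0 of the 6 and in 4.94% of all. These promoters are shown because Spdef and Muc20 were the 2 members with an unadjusted p under 0.05, with the forkhead match in capitals (reverse strand in both cases, at bases 47 to 41 before the Spdef start and 248 to 242 before the Muc20 start):
Spdef, chr17:27728952-27729201, minus strand: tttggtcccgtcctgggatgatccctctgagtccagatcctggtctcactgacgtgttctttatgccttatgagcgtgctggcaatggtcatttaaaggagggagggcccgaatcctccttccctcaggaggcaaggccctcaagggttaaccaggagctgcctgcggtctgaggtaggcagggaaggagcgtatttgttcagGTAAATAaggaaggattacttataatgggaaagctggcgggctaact
Muc20, chr16:32797436-32797685, minus strand: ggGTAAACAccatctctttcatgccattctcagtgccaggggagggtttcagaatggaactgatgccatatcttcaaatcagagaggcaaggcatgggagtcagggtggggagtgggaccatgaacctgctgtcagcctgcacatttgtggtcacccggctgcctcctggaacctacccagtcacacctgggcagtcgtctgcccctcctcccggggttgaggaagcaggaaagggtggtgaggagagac
A match describes the letters in this window and is no evidence of binding.

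Markers of club and ciliated cells had higher means in the knockout lungs, with none of their genes called. In the knockout lungs both list means rose in the same order as Muc5b, from replicate 3 through 1 and 2 to 4. Wild-type replicate 4 was lowest of its group in both means and in Muc5b. The match did not extend to every wild-type lung. Wild-type replicate 1, low in Muc5b, had the highest club and ciliated means of the wild-type lungs. Single club markers differed in this. Scgb3a2 was lowest in wild-type replicates 1 and 4 and knockout replicate 3 (2.11, 1.94 and 2.30), the lungs lowest in Muc5b. Scgb1a1 and Cyp2f2 had their highest wild-type value in replicate 1. Club cell markers (16 of 16 measured, 14 higher) had a mean level of 2.97 to 3.43 in wild-type and 3.51 to 3.92 in knockout lungs, so the groups did not overlap, although their most specific marker Scgb1a1 differed by only 0.17 ± 0.072 (SE), Scgb3a2 by 1.02 ± 0.40 and Cyp2f2 by 0.70 ± 0.20. Ciliated markers (21 of 22 measured, 21 higher) stood at -0.21 to 0.27 in wild-type and 0.19 to 0.95 in knockout lungs, with Foxj1, the master regulator of ciliated cells, at 0.59 ± 0.13 (SE). With the club mean of each sample as a covariate the difference of Muc5b was -0.34, that of Muc5ac -0.28, that of Agr2 -1.48, that of Tff2 -1.54 and that of Muc1 -0.029. With the ciliated mean as a covariate Muc5ac differed by -0.33, Agr2 by -1.0002 and Tff2 by -1.03, and Muc5b by 0.063. The difference of Spdef was 0.59 and 0.61 (limma, adjusted p = 0.66 and 0.413) and that of the brighter Muc20 probe 0.10 and 0.25 (limma, adjusted p = 0.896 and 0.548) with the club and ciliated means. The dimmer Muc20 probe stood at 1.78 and 1.85, without its call (limma over probes, adjusted p = 0.435 and 0.244). As the club means separate the genotypes, such a fit cannot tell the covariate from the genotype.

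**Figure D5:**
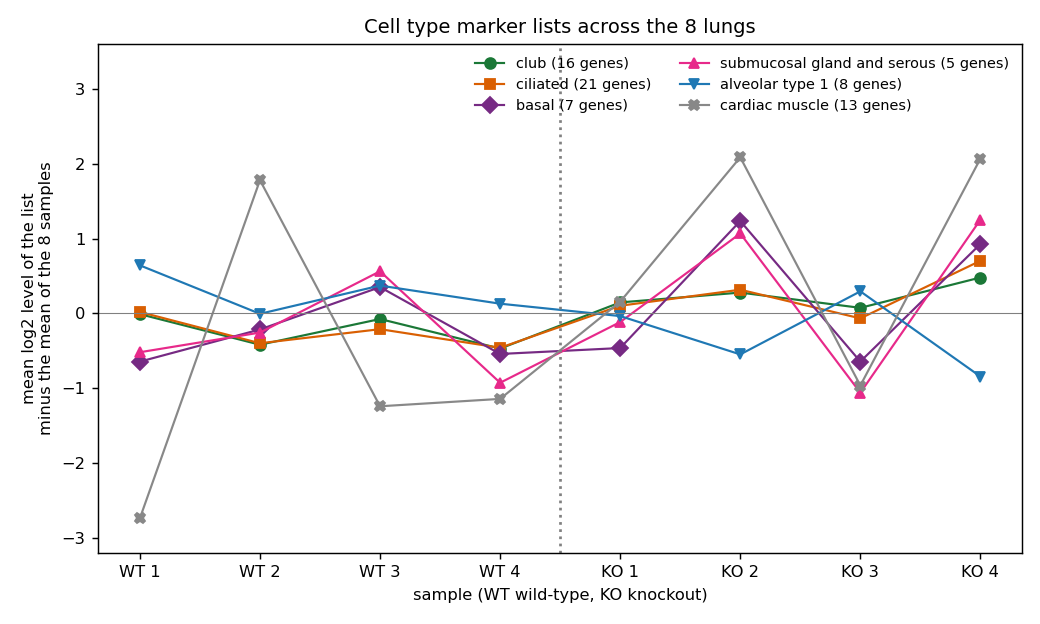
Mean log2 level of 6 cell type marker lists in each lung (x axis; WT wild-type, KO knockout), each minus its mean over the 8 samples. The basal and gland lists are high in WT 3, KO 2 and KO 4, the cardiac list is high in WT 2, KO 2 and KO 4, and the alveolar type 1 list is lowest in KO 4 and KO 2.

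The 3 lungs lowest in Muc5b also had the lowest means of the gland and serous list. Submucosal gland and serous markers (5 of 9 measured, 4 higher) averaged -1.28, -1.02, -0.20 and -1.69 in wild-type and -0.88, 0.31, -1.82 and 0.49 in knockout lungs 1 to 4. Their mean was lowest in wild-type replicates 1 and 4 and knockout replicate 3. Ltf, a serous cell protein on that list, ranged from 1.54 to 6.89 and was lowest in the same lungs, as was Dmbt1. Bhlha15 was too, but its value in wild-type replicate 4 (-0.20) lay barely below that in knockout replicate 1 (-0.18). The others went differently: Azgp1 was highest in knockout replicate 3 (-2.05) and Dnase1 in wild-type replicate 4 (-4.63). Basal cell markers (7 of 7 measured, 6 higher) averaged -1.82 to -0.82 in wild-type and -1.82 to 0.06 in knockout lungs, with the keratin gene Krt5 at -4.22, -3.88, -0.73 and -3.96 in wild-type and -3.89, 1.12, -4.25 and -0.39 in knockout lungs 1 to 4. The basal markers Krt14 and Trp63 did not share the Krt5 pattern, differing by -0.20 ± 0.16 and 0.052 ± 0.095 (SE). Trp63 was highest in knockout replicate 3 (2.45) and lowest in knockout replicate 4 (2.04). With the basal mean as a covariate, which was added once the data had been seen, Muc5b differed by 1.25, Agr2 by 0.40, Tff2 by 0.81 and Spdef by 1.22 (limma, adjusted p = 0.543, 0.85, 0.691 and 0.0799).

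Cardiac muscle markers (13 of 14 measured, 13 higher) ranged from -0.73 to 3.79 in wild-type and from 1.04 to 4.09 in knockout lungs, with Myh6 at 2.001 ± 1.07 (SE). With their mean as a covariate Muc5b differed by 0.86, Agr2 by 0.14, Tff2 by 0.62 and Spdef by 1.22 (limma, adjusted p = 0.718, 0.961, 0.807 and 0.0822). Alveolar type 1 markers (8 of 8 measured, 0 higher) went from 3.80 to 4.45 in wild-type and 2.96 to 4.10 in knockout lungs, and alveolar type 2 markers (9 of 9 measured, 2 higher) from 4.92 to 5.21 and 4.47 to 5.11. Mesothelial markers (10 of 10 measured, 8 lower) ranged from 0.02 to 1.09 in wild-type and 0.20 to 0.69 in knockout lungs, lowest in wild-type replicate 2, which was also lowest in Muc16. Msln differed by 0.62 ± 0.39 and Upk3b by -0.79 ± 0.22 (SE). The part of these cell types in the differences of the mucins was not tested beyond the fits with a covariate.

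Few markers of stomach, of oesophagus and squamous epithelium, or of large-airway cartilage were measured. Of 8 stomach markers 1 was measured, Pgc (-0.06 ± 0.18, SE), and the gastric Gkn1, Gkn2, Atp4a, Atp4b, Cblif, Muc6 and Vsig1 did not pass the filter on dim probes. Of 7 oesophageal and squamous markers 3 were measured, Krt13, Sprr1a and Lor (0.29 ± 0.19, 0.35 ± 0.87 and 0.44 ± 0.17, SE). Of 10 markers of large-airway cartilage 4 were measured, among them Acan (-0.27 ± 0.30) and Col9a1 (-0.13 ± 0.16, SE), and the cartilage collagen Col2a1 and Matn1 did not pass.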

How the data were processed

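RNA of 8 whole lungs was labelled with Cy3 and hybridised to Agilent arrays. Agilent Feature Extraction 10.7.1.1 made the deposited files, per the file headers, and their intensity values are background-subtracted, detrended signals per spot. A second deposited table gives log2 values from the authors, whose columns share a median of 5.63 and correlate with log2 scanner signal at r above 0.999, and whose normalization is not stated. Control and outlier spots were left out, spots of a probe averaged, and log2 signal set relative to the array's 75th percentile. Probes passed the filter if at least 3 of the 4 arrays in either genotype had them well above background, with the brightest probe per gene name. Genotypes were tested in R 4.3.3 using limma 3.58.1 (two-sided, Benjamini-Hochberg, threshold 0.05), tested on simulated data first; exact permutation tests were two-sided. The number of arrays limits the precision. Names in lists follow RefSeq symbols matched by accession or symbol. The text names all members, up to 4 genes per list by smallest p, up to 3 markers per cell type by list order, and the 3 genes most like each of 5 mucins, of which 1 is not reported here. Il13, Foxa3, Il25, Muc2, Muc6, Ltf, Bhlha15, Dnase1 and the unmeasured markers were named after their values were seen. Members and lists were chosen with earlier results of these data known. Alternatives were other background corrections, scalings, filters, the value table, a replicate block, probe averaging, a variance trend, marker covariates and leaving out each sample. Figures were drawn with matplotlib 3.10.9.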

Additional observations from a re-analysis of the deposited data

How the results depend on the processing

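Of the 10 members, Muc4, Muc16, Muc20, Clca3 and Spdef kept their direction in every alternative that gave a value, and the other 5 turned only with a marker mean as covariate. With the club mean the differences were -0.28 for Muc5ac, -0.34 for Muc5b, -0.029 for Muc1, -1.48 for Agr2 and -1.54 for Tff2, and with the ciliated mean -0.33 for Muc5ac, -1.0002 for Agr2 and -1.03 for Tff2. The class medians with the club mean were -0.31 (secreted), 0.035 (membrane) and -0.44 (goblet cell genes), and with the ciliated mean -0.13 (secreted), 0.18 (membrane) and -0.19 (goblet cell genes). Members called by limma numbered 0 in all settings but 2: 1 with no filter on dim probes (Spdef, adjusted p = 0.0466) and 1 with each probe on its own (Muc20). Clca3 gave no value with the filter on all 8 arrays. Over all genes, higher and lower calls numbered 8 and 7. They were 228 and 284 with normexp, 2732 and 785 with no filter, 59 and 67 with the filter on all 8 arrays, 160 and 257 with a variance trend, 659 and 969 with the cardiac covariate, 0 and 0 with the club and with the ciliated covariate, 1 and 0 with the basal covariate (chosen after the data were seen), 6 and 11 with median centring, 11 and 11 with each probe on its own and 4 and 5 with probes averaged. Leaving out 1 sample gave 1 to 11 higher and 0 to 12 lower. The replicate block gave 12 higher and 34 lower. Same-numbered samples deviated together for number 2 (correlation of 0.47) but not for all numbers (0.13, 0.012 and -0.29 for 1, 3 and 4), so the numbers are not taken to pair them, and the dimmer Muc20 probe had an adjusted p of 0.0558 with the block. Signal over background limits Clca3 in 3 lungs.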

Other observations

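Among the 25 genes with the largest spread within genotypes, picked out after the values were seen, Plunc (Bpifa1 in RefSeq), a secreted protein of the upper airway, ranked 1, Reg3g 2, Scgb3a1 6 and the keratin gene Krt15 12. The fat cell genes Cfd, Adipoq and Plin1 ranked 5, 9 and 11, Car3, a muscle and fat enzyme, 7 and the atrial gene Nppa 8, so the widest spread was not limited to airway genes. Bpifa1 read -1.24, 0.66, 6.32 and -5.63 in the wild-type and -1.32, 7.44, -1.88 and 6.61 in the knockout lungs 1 to 4, and Bpifb1, a related airway protein, 1.25, 4.32, 5.13 and 1.23 in the wild-type and 4.37, 6.29, 0.27 and 7.28 in the knockout lungs 1 to 4. Wild-type replicates 1 and 4 and knockout replicate 3 were low in Bpifb1 as they were in Muc5b, whereas in Bpifa1 knockout replicate 1 was low as well. The lectin Itln1 read -6.13, -3.48, -1.91 and -6.20 in the wild-type and -2.36, -0.59, -5.29 and 0.89 in the knockout lungs 1 to 4, with the same 3 lungs lowest. Whether Itln1 rose clearly above background in each of these lungs is not given here. The difference of Itln1, 2.59 ± 1.47 (SE; limma, adjusted p = 0.317), did not pass and is not read as a size.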
